A study of Sus scrofa with 12 samples.

Results

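The genes described here load and run the replicative DNA helicase: the helicase subunits MCM2, MCM3, MCM4, MCM5, MCM6 and MCM7, the loading factors CDT1 and CDC6, the helicase cofactor GINS2 and the sliding clamp PCNA. They were chosen by name, and 9 of the 10 listed names had a row among the 18060 genes of the deposited expression table; MCM5 was not analysed here. RNA was measured in primary granulosa cells, which line the ovarian follicle and nurse the oocyte, from antral follicles of adult Duroc × Yorkshire × Landrace crossbred sows (Sus scrofa). The labels name no genetic change; the cells, grown in DMEM/F-12 with fetal bovine serum, spent 12 h in normoxia (21% O2) or hypoxia (1% O2), both with 5% CO2. Per condition, 3 replicates each yielded a fragmented poly(A) input and a second library pulled down with an antibody to N6-methyladenosine (m6A), a methyl mark on mRNA adenosines, for 12 libraries in total. The labels call the replicates biological, but the sources used here do not say which sow a replicate came from. The p-values therefore measure the spread between these libraries, which may not be the spread between sows.

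Before each S phase, the origin recognition complex, CDC6 and CDT1 load the MCM2 to MCM7 ring onto DNA, a step called licensing. CDC45 and the GINS complex then turn the loaded ring into a working helicase, and PCNA tethers the polymerases that copy the unwound strands. The genes are classical targets of E2F transcription factors and are used as markers of proliferating cells; granulosa cells of growing follicles divide, and in culture their division depends on serum and growth factors.

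RNA levels are given as FPKM, fragments per length of transcript and per library size, a unit that allows genes to be compared within a library. FPKM sums ranged from 294929 to 326804 over the 6 input libraries, and without read counts the depth is unknown. The 14 granulosa markers had a summed level of 103 to 113 FPKM in normoxia and 106 to 121 in hypoxia. Of the 11 tested ones 9 had a negative log2 fold change (81.8%, against 72.2% of all tested genes). INHBB was higher in hypoxia (16.4 to 31.5 FPKM, limma adjusted p = 0.00429), FSHR (9.74 to 5.52, 0.0101) and AMHR2 (2.72 to 0.784, 0.0209) were lower, and the means of CYP19A1 and AMH were at or below 0.233. Markers of fibroblasts and smooth muscle were abundant, with a summed level of 9727 to 11576 FPKM in normoxia and 6317 to 7533 in hypoxia over 9 of 9 genes. Most of this sum was ACTA2 (7642 to 3477 FPKM) and TAGLN (2311 to 2390). Of these markers 2 were higher in hypoxia, PDGFRA (4.33 to 8.50, limma adjusted p = 0.0121) and COL1A1 (184 to 286, 0.0259). The 2 lower ones were ACTA2 (0.00456) and DES (4.07 to 2.22, 0.0492), DES not after median-ratio scaling (0.316). The part of these markers in the results below was not tested. The theca list summed to 9.10 to 14.5 FPKM in normoxia and 12.0 to 27.8 in hypoxia, with PDGFRB its highest gene and 0 called. The leukocyte list summed to 3.78 to 4.69 FPKM in normoxia and 2.82 to 7.67 in hypoxia, with CD14 and CD68 its highest genes, PTPRC near 0 and 0 called. The endothelial list summed to 8.26 to 9.83 and 3.71 to 4.62; both of its tested genes were lower, PECAM1 (6.56 to 2.81, limma adjusted p = 0.00414) and ERG (2.37 to 1.06, 0.0338), while VWF, KDR, TEK and CLDN5 were at or below 0.119. After median-ratio scaling INHBB and PECAM1 kept their calls, and FSHR (0.159), AMHR2 (0.0927) and ERG (0.117) did not. All 8 of 8 genes in a list of hypoxia-responsive genes rose in hypoxia. The hypoxia library of replicate 3 stood apart: its median-ratio scaling factor was 0.753, against 0.935 to 1.17 in the other 5.

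In normoxia MCM7 was the highest at 41.7 ± 3.99 FPKM (SD, n = 3), followed by MCM4 (20.4 ± 3.68), MCM2 (15.0 ± 1.91), PCNA (14.1 ± 3.49), MCM3 (12.5 ± 1.45), GINS2 (9.28 ± 1.45), MCM6 (7.68 ± 1.91), CDT1 (3.09 ± 0.482) and CDC6 (0.708 ± 0.189). MCM7 stood clear of MCM4, and CDT1 of both MCM6 and CDC6, while the libraries of each neighbouring pair from MCM4 down to MCM6 overlapped. In hypoxia MCM4 led with 29.5 ± 8.29 FPKM. Its libraries overlapped those of MCM7 (21.2 ± 0.45), which no longer led, and MCM7 stood clear of MCM3 (6.04 ± 1.26), the next in order.

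**Figure D1:**
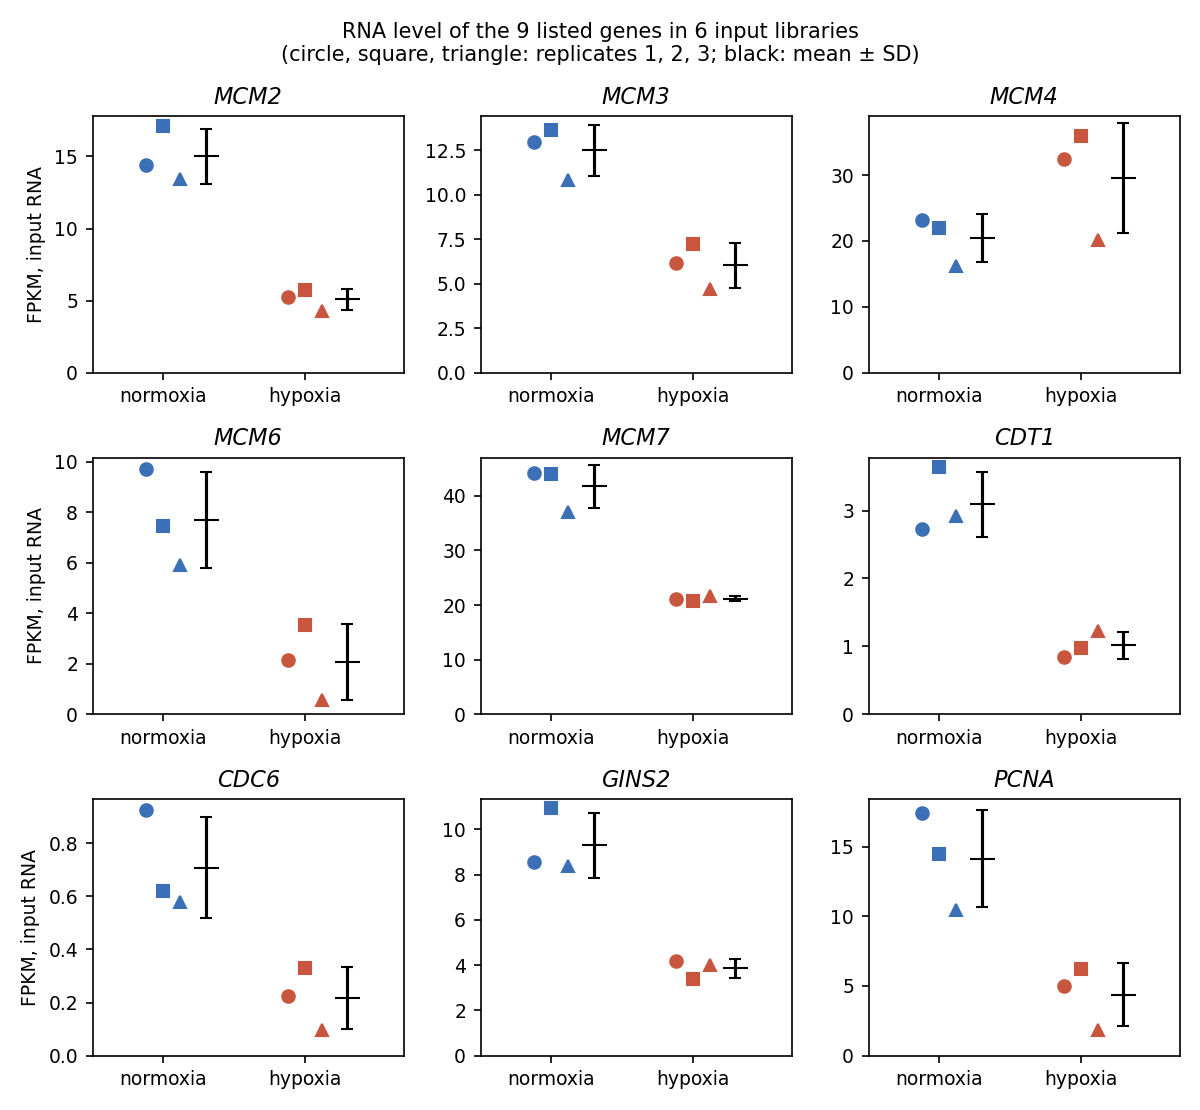
FPKM of 9 genes (y axis, from 0, scale set per gene) in the 3 normoxia (blue) and 3 hypoxia (red) input libraries, with replicates 1, 2 and 3 as circle, square and triangle and the mean ± SD in black. In 8 genes each hypoxia library lies below each normoxia library; in MCM4 the hypoxia libraries lie at 20.2 to 36.0 FPKM and overlap the normoxia range of 16.2 to 23.1.

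Hypoxia was compared with normoxia by limma on log2(FPKM + 1) over the 10196 genes that reached 1 FPKM in 3 or more of the 6 libraries, with Benjamini-Hochberg adjusted p-values and a threshold of 0.05. Of the 9 genes, 7 were lower in hypoxia (MCM2, MCM3, MCM6, MCM7, CDT1, GINS2 and PCNA), MCM4 did not pass, and CDC6 was too low to be tested. Over all tested genes 26.5% were called, 21.1% lower and 5.4% higher. After median-ratio scaling of the libraries 6 members were lower and MCM4 higher, where 14.7% of all tested genes were called, 7.39% lower and 7.34% higher. In bulk RNA, fewer cells of a type and less RNA per cell cannot be told apart. The median log2 fold change of all tested genes was -0.26 with FPKM as deposited and 0.02 after median-ratio scaling. The median of the members is therefore also given relative to it. The median of the 8 tested members was -1.05, or -0.78 relative to all genes, and -0.80 relative to all genes after scaling. Scaled log2 fold changes were -1.08 (MCM2), -0.63 (MCM3), -1.37 (MCM6), -0.79 (CDT1), -0.77 (GINS2) and -1.28 (PCNA). Those of MCM4 and MCM7 are given below. CDT1 passed the filter through its 3 normoxia libraries and 1 hypoxia library. Libraries of the 2 conditions did not overlap, and were lower in hypoxia, for 8 of the 9 genes, the untested CDC6 among them. Of all tested genes 34.9% behaved so and 9.25% were higher without overlap.

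MCM2, on chromosome 13 (ENSSSCG00000011624, 72630380 to 72657786, minus strand, build Sscrofa11.1), carries the N-terminal histone-binding region of the helicase. It had 14.4, 17.1 and 13.5 FPKM in the normoxia libraries 1, 2 and 3 and 5.23, 5.75 and 4.32 in the hypoxia libraries. All 3 hypoxia libraries lay far below the lowest normoxia library. Its log2 fold change was -1.39 (SE 0.167, limma adjusted p = 0.0017), a 2.94-fold lower mean FPKM, and it held with each library left out (highest adjusted p = 0.0174). The deposited gene model of MCM2 overlaps an unnamed gene on the other strand (ENSSSCG00000011623) over 1807 bases; that gene had 6.44 ± 1.34 FPKM in normoxia and 12.0 ± 4.13 in hypoxia. The labels describe a strand-marking library, but the sources used here do not say whether the counting used strand.

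MCM3 (ENSSSCG00000025488, chromosome 7, 46084662 to 46104375, minus strand) is another subunit of the ring. It had 13.0, 13.6 and 10.8 FPKM in normoxia and 6.17, 7.24 and 4.72 in hypoxia, with no overlap. Its log2 fold change was -0.95 (SE 0.187, limma adjusted p = 0.0105). The call was lost without normoxia library 2 (adjusted p = 0.0626).

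MCM6 (ENSSSCG00000035564, chromosome 15, 15923681 to 15985405, plus strand), which sits beside MCM2 in the ring, had the lowest level of the 5 subunits. Its FPKM were 9.69, 7.46 and 5.90 in normoxia and 2.14, 3.52 and 0.546 in hypoxia. The hypoxia libraries were lower but far apart, with a coefficient of variation (SD over mean) of 71.9%, against 24.8% in normoxia. The log2 fold change was -1.61 (SE 0.395, limma adjusted p = 0.0239). It was -1.18 (adjusted p = 0.00124) without hypoxia library 3, the lowest one. The call was lost without hypoxia library 1 (adjusted p = 0.0704), normoxia library 1 (0.0933), 2 (0.0907) or 3 (0.0548), and with no filter on low values (0.0519).

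MCM7 (ENSSSCG00000032180, chromosome 3, 8005900 to 8014053, minus strand), whose gene also hosts microRNAs in an intron, had 44.1, 44.0 and 37.1 FPKM in normoxia and 21.1, 20.7 and 21.6 in hypoxia. The hypoxia libraries agreed closely, with a coefficient of variation of 2.13%, the smallest among the 9 genes. Its log2 fold change was -0.94 (SE 0.137, limma adjusted p = 0.00347), and a median-ratio factor per library gave -0.60 (adjusted p = 0.0651). The start of MCM7 overlaps AP4M1 on the other strand over 307 bases, and AP4M1 had 7.72 ± 1.14 and 8.25 ± 2.96 FPKM.

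MCM4 (ENSSSCG00000006273, chromosome 4, 79674739 to 79686685, minus strand) went against the other subunits. It had 23.1, 21.9 and 16.2 FPKM in normoxia and 32.5, 36.0 and 20.2 in hypoxia. Hypoxia libraries 1 and 2 lay above all normoxia libraries, and library 3 fell within their range. The log2 fold change was 0.49 (SE 0.25, 95% interval -0.10 to 1.08, limma adjusted p = 0.201). It passed after median-ratio scaling (0.83, adjusted p = 0.0302) and without hypoxia library 3 (0.73, adjusted p = 0.00496). With replicate number as a block MCM4 passed as well (limma adjusted p = 0.0475), though the labels do not say that these numbers pair libraries. The authors' deposited table also lists MCM4 as higher (log2 fold change 0.53, q-value 0.0236), without marking it as significant. By the authors' deposited table, 6.84% of genes were higher and 6.88% lower at a q-value under 0.05, and the other 8 members were lower, with q-values from 2.46e-05 (MCM2) to 0.0369 (MCM7). The authors' deposited table marks 7 of those 8, MCM7 excepted, where 8.72% of genes are marked lower and 4.75% higher.

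**Figure D2:**
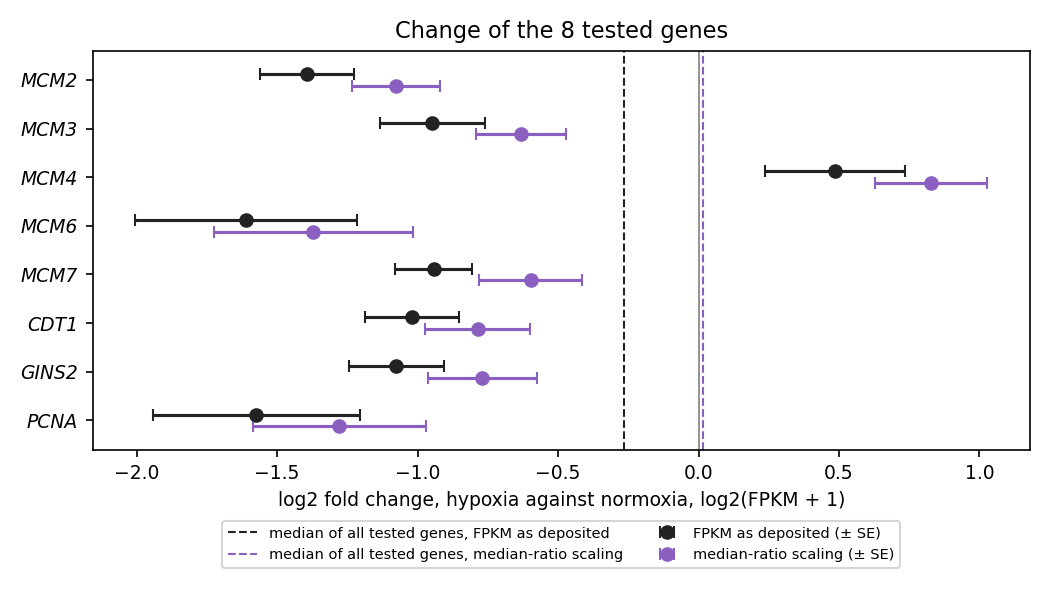
Log2 fold change on log2(FPKM + 1) ± SE of the 8 tested genes with FPKM as deposited (black) and after median-ratio scaling (purple); dashed lines mark the median of all tested genes (-0.26 and 0.02). MCM4 lies to the right of 0 in both, and the other 7 genes lie to the left of both medians.

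The subunits occur once each in the ring, and their RNA did not keep the same proportions. MCM4 had 1.60, 1.28 and 1.21 times the FPKM of MCM2 in the normoxia libraries and 6.21, 6.26 and 4.67 times in the hypoxia libraries. The ratio of MCM4 to MCM3 went from 1.50 to 1.78 in normoxia up to 4.28 to 5.26 in hypoxia. The ratio to MCM6 went from 2.39 to 2.94 up to 10.2 to 37.0, and that to MCM7 from 0.437 to 0.524 up to 0.933 to 1.73. None of these ratios depends on how libraries are scaled to each other, and in each of them the 2 conditions did not overlap. MCM2, MCM3, MCM6 and MCM7 were themselves lower in hypoxia without overlap. MCM4 itself had a log2 fold change of 0.49 (limma adjusted p = 0.201). The share of other genes whose ratios to these subunits separate the conditions was not counted.

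To compare members with each other, each gene's log2(FPKM + 1) was set against the mean of the other 7 tested genes in the same library. MCM4 lay 0.88, 0.75 and 0.65 above that mean in the normoxia libraries and 2.57, 2.58 and 2.26 above it in the hypoxia libraries. The difference between conditions was 1.71, far beyond the spread between replicates (SD 0.111 and 0.185). It includes the lower level of the other 7 genes in hypoxia. An exact two-sided permutation test over the 6 libraries gave p = 0.1, which is the smallest it can give with 3 against 3, and 0.267 after adjustment over the 8 genes, so this test cannot reach 0.05 here. With only the MCM subunits as reference the difference was 1.71 again.

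For the other 7 genes this measure depends on MCM4, which is part of their reference, so each was also set against the rest without MCM4, a choice made after seeing the data. MCM2 went from 0.29 above the mean of the other genes to 0.15 below it (difference -0.44, exact permutation p = 0.1), but without MCM4 in the reference the difference was -0.20 (exact permutation p = 0.2). PCNA differed by -0.64 (exact permutation p = 0.1), and by -0.41 without MCM4 in the reference (0.5). MCM6 differed by -0.69 and -0.45 (exact permutation p = 0.2 and 0.4). Without hypoxia library 3 the differences of PCNA and MCM6 shrank to -0.35 and -0.37.

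MCM3 differed by 0.07 with MCM4 in the reference and by 0.32 without it, where its libraries did not overlap (exact permutation p = 0.1). MCM7 likewise differed by 0.08 and 0.33 (exact permutation p = 0.9 and 0.1). CDT1 (-0.01 and 0.24) and GINS2 (-0.08 and 0.17) changed sign between the references. With a pseudocount of 0.1 and MCM4 in the reference, MCM3 differed by 0.20, MCM7 by 0.28 and CDT1 by -0.34. The signs for MCM3 and MCM7 turned with the MCM subunits alone as reference, and those for MCM7, CDT1 and GINS2 when single libraries were left out, so no direction is given for these 4 genes.

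**Figure D3:**
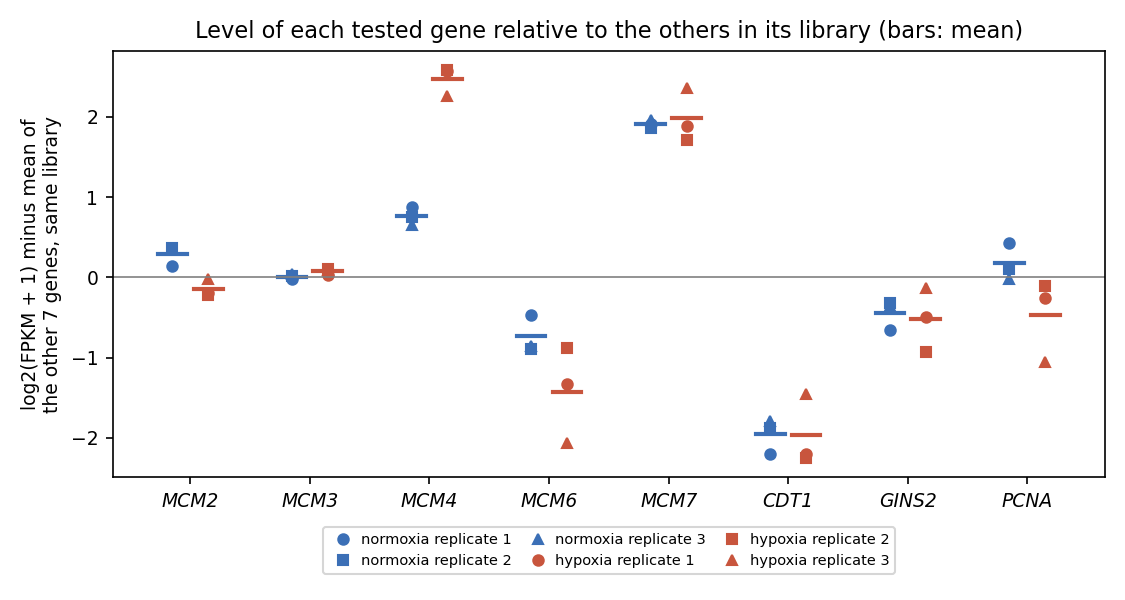
Each tested gene's log2(FPKM + 1) minus the mean of the other 7 tested genes of the same library, MCM4 included (y axis), by condition and replicate, with the mean as a bar. MCM4 moves from 0.65 to 0.88 in normoxia up to 2.26 to 2.58 in hypoxia, and MCM7 stays between 1.71 and 2.36 in all 6 libraries.

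The gene next to MCM4 is PRKDC, which codes for the catalytic subunit of DNA-dependent protein kinase. It lies head to head with MCM4 on the other strand, with 689 bases between the annotated gene ends. PRKDC had 1.27 ± 0.109 FPKM in normoxia and 1.31 ± 0.295 in hypoxia, with little difference on the log2 scale (0.02, SE 0.155, limma adjusted p = 0.955).

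Both loading factors were low. CDT1 (ENSSSCG00000002651, chromosome 6, 893381 to 897934, minus strand), which brings the MCM ring to the origin, had 2.72, 3.64 and 2.91 FPKM in normoxia and 0.845, 0.97 and 1.23 in hypoxia. The 2 conditions did not overlap, and its log2 fold change was -1.02 (SE 0.168, limma adjusted p = 0.00542), a 3.04-fold lower mean FPKM. The log2(FPKM + 1) scale understates the change of such low genes: with a pseudocount of 0.1 it was -1.52.

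CDC6 (ENSSSCG00000017471, chromosome 12, 22101282 to 22118593, minus strand), the ATPase that works with CDT1, had 0.925, 0.62 and 0.58 FPKM in normoxia and 0.223, 0.331 and 0.0985 in hypoxia. No library reached 1 FPKM, so it was left out of the test. Without a filter on low values its log2 fold change was -0.49 (limma adjusted p = 0.0423). The authors' deposited table gives a log2 fold change of -1.70 with a q-value of 0.0139.

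GINS2 (ENSSSCG00000056302, chromosome 6, 3218702 to 3243899, plus strand), a subunit of the GINS complex, had 8.54, 11.0 and 8.36 FPKM in normoxia and 4.20, 3.39 and 3.99 in hypoxia. All hypoxia libraries were below all normoxia libraries, and limma gave -1.08 ± 0.169 on the log2 scale (SE, adjusted p = 0.00459). Its partner genes did not pass: GINS1 had a log2 fold change of -0.80 (limma adjusted p = 0.107), GINS3 -0.18 (0.476) and GINS4 0.12 (0.68); these 3 are named as the rest of the complex, outside the rule for named genes.

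PCNA (ENSSSCG00000056538, chromosome 17, 14136886 to 14142744, minus strand) had 17.4, 14.5 and 10.5 FPKM in normoxia and 5.03, 6.23 and 1.85 in hypoxia. The log2 fold change was -1.57 (SE 0.368, limma adjusted p = 0.0202), or -1.17 (adjusted p = 0.000799) without hypoxia library 3. It lost the threshold without hypoxia library 1 (adjusted p = 0.0526) and without normoxia libraries 1 (0.0821) and 2 (0.0862).

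Replicate 3 held the lowest value of most members in both conditions. In normoxia library 3 was the lowest for 8 of the 9 genes, CDT1 excepted, and in hypoxia for 6 of them, CDT1, MCM7 and GINS2 excepted. Library 3 also had the lowest median-ratio scaling factor of its condition, over all genes used for scaling. It was 1.08 in normoxia, against 1.15 and 1.17, and 0.753 in hypoxia, against 0.935 and 0.984. The share of all tested genes that were lowest in library 3 was not counted, and the sums below are unscaled. The summed FPKM of the 9 genes was 134, 134 and 106 in normoxia and 77.4, 84.2 and 58.6 in hypoxia. The summed FPKM of 16 genes of G2 and mitosis, markers of cells in division, had the same low libraries: 332, 303 and 205 in normoxia and 229, 270 and 108 in hypoxia. Unlike the members, these sums overlapped between the conditions. Of the 16 mitotic genes 1 was lower (6.25%, against 21.1% of all tested genes). It was UBE2C (a ubiquitin-conjugating enzyme of mitosis, log2 fold change -1.03, limma adjusted p = 0.047). The median of the 16 genes was -0.41, or -0.10 after median-ratio scaling. Without hypoxia library 3 that median was 0.06, with 7 of 16 genes negative. The call of UBE2C was lost after median-ratio scaling (0.107), with a pseudocount of 0.1 (0.0514), with no filter on low values (0.0903), without hypoxia library 1 (0.0891) and without normoxia libraries 1 (0.151), 2 (0.172) and 3 (0.0583). The part of cell division in the members' change was not tested.

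Around the members, 126 genes in 11 lists of replication and cell cycle genes had a row, and 113 were tested. Of these 31 were lower in hypoxia (27.4%, against 21.1% of all tested genes) and 2 higher, where 5.4% of all tested genes were. Under median-ratio scaling 14 were lower (12.4%, against 7.39%) and 3 higher, where 7.34% of all tested genes were. The listed genes had a median of -0.53, which is -0.26 relative to all genes; without hypoxia library 3 these were -0.30 and -0.13. The number lower was 12, 8, 20 and 15 without normoxia libraries 1, 2 and 3 and hypoxia library 1. The number higher was 1 without any of these 4 and 6 without hypoxia library 3. The shares lower without these 4 libraries, in the order given, were 10.6%, 7.08%, 17.7% and 13.3%. Of all tested genes 11.6%, 7.83%, 10.1% and 10.4% were lower in the same fits.

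Of 11 tested genes of origin recognition and licensing outside the members 2 were lower (18.2%, against 21.1% of all tested genes). Their median of -0.30 was -0.03 relative to all genes, and it was -0.01 without hypoxia library 3. These were GMNN, which codes for the CDT1 inhibitor geminin (8.41 ± 1.44 to 2.65 ± 1.69 FPKM, -1.47 on the log2 scale, limma adjusted p = 0.0255), and LRWD1, an ORC-binding protein gene (-0.95, adjusted p = 0.00862). GMNN lost its call without hypoxia library 1 (0.072) and normoxia libraries 1 (0.0929), 2 (0.105) and 3 (0.0588), and LRWD1 without normoxia library 2 (0.0552) and after scaling (0.0742). No ORC gene passed. Of 10 genes of helicase activation TICRR was higher and 1 was lower (10%, against 21.1% of all tested genes). The lower one was CDC7, a kinase that phosphorylates the MCM ring (-0.53, limma adjusted p = 0.0407). Its limma adjusted p was 0.126 after scaling, and 0.0928 to 0.156 without each normoxia library or hypoxia library 1.

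TICRR, which codes for treslin and helps bring CDC45 to the loaded helicase, was the replication gene with the largest rise. It had 0.695, 0.765 and 0.502 FPKM in normoxia and 7.22, 7.95 and 10.4 in hypoxia. Its mean was 13.0 times higher in hypoxia (2.51 ± 0.186 on the log2 scale, SE, limma adjusted p = 0.000348), and it held with each library left out (highest adjusted p = 0.00589). TICRR passed the filter through the hypoxia libraries alone, so it had to differ to be tested. The fits with a library left out kept this filter, so none of these p-values is independent support. Its end overlaps that of KIF7 on the other strand by 47 bases; KIF7 had 10.3 ± 1.85 and 8.11 ± 1.56 FPKM.

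Downstream of the helicase, 6 of 11 polymerase and primase genes were lower (54.5%, against 21.1% of all tested genes). POLD3, POLE, POLD1 and POLE4 changed the most (-0.92 to -0.75). The number lower was 0 after scaling or without normoxia library 1, normoxia library 2 or hypoxia library 1. Of 13 genes of clamp loading, Okazaki fragments and single-strand binding 3 were lower (23.1%, near the 21.1% of all tested genes), RPA1, RPA3 and FEN1. After scaling 2 were lower (15.4%, against 7.39%). RPA1, the large subunit of the single-strand binding protein, fell from 33.2 ± 1.46 to 16.3 ± 1.75 FPKM (-0.99, limma adjusted p = 0.00345, 0.0305 after scaling). Replication-coupled chromatin assembly had 4 of 7 genes lower under both scalings, with a median of -1.11: CHAF1B, CHAF1A, NASP and UHRF1. That is 57.1%, against 21.1% of all tested genes and 7.39% after scaling. CHAF1B, a subunit of the histone chaperone CAF-1, fell from 5.54 ± 0.734 to 1.21 ± 0.573 FPKM (-1.59, limma adjusted p = 0.00421). Of 8 genes of nucleotide supply, 2 were lower under both scalings (25%, against 21.1% of all tested genes and 7.39% after scaling). These were the CTP synthase gene CTPS1 (-1.78) and the thymidine kinase gene TK1 (-1.37). Calls of CHAF1B, CHAF1A, RPA1, CTPS1 and TK1 held with each library left out. The others did not: RPA3 was lost without any 1 of the normoxia libraries (limma adjusted p from 0.0556 to 0.109), FEN1 without normoxia library 1 (0.054) or 2 (0.066), UHRF1 likewise (0.0526 and 0.0635), and NASP without normoxia library 2 (0.0528).

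Upstream, 7 of 13 genes of the E2F and RB family were lower (53.8%, against 21.1% of all tested genes). After scaling 2 were lower (15.4%, against 7.39%). E2F1, an activator of S-phase genes, fell from 7.24 ± 1.25 to 2.55 ± 0.805 FPKM (-1.23, limma adjusted p = 0.00875, 0.014 after scaling, 0.0527 without normoxia library 2). The repressor E2F6 had -1.24 (adjusted p = 0.00813, 0.0134 after scaling, 0.0507 without normoxia library 2). Of 14 cyclins, kinases and inhibitors of G1/S, 3 were lower under both scalings (21.4%, against 21.1% of all tested genes and 7.39% after scaling). These were CDK4, CCND1 and CCNE1. CDKN2B, an inhibitor of CDK4, was higher, as were 5.4% of all tested genes. CDK4 fell from 103 ± 6.97 to 43.3 ± 8.01 FPKM (-1.25, limma adjusted p = 0.00297) and CCNE1, whose kinase partner starts S phase, from 3.77 ± 0.487 to 1.20 ± 0.456 (-1.13, adjusted p = 0.00817). CDKN2B had 0.89 (adjusted p = 0.035), with 0.0632 to 0.131 without hypoxia library 1 or 2 or any normoxia library. Of 4 fork protection genes 2 were lower (50%, against 21.1% of all tested genes), ATRIP and TIMELESS, and 0 after scaling. Of 6 genes of CDT1 and CDC6 turnover 0 passed limma.

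**Figure D4:**
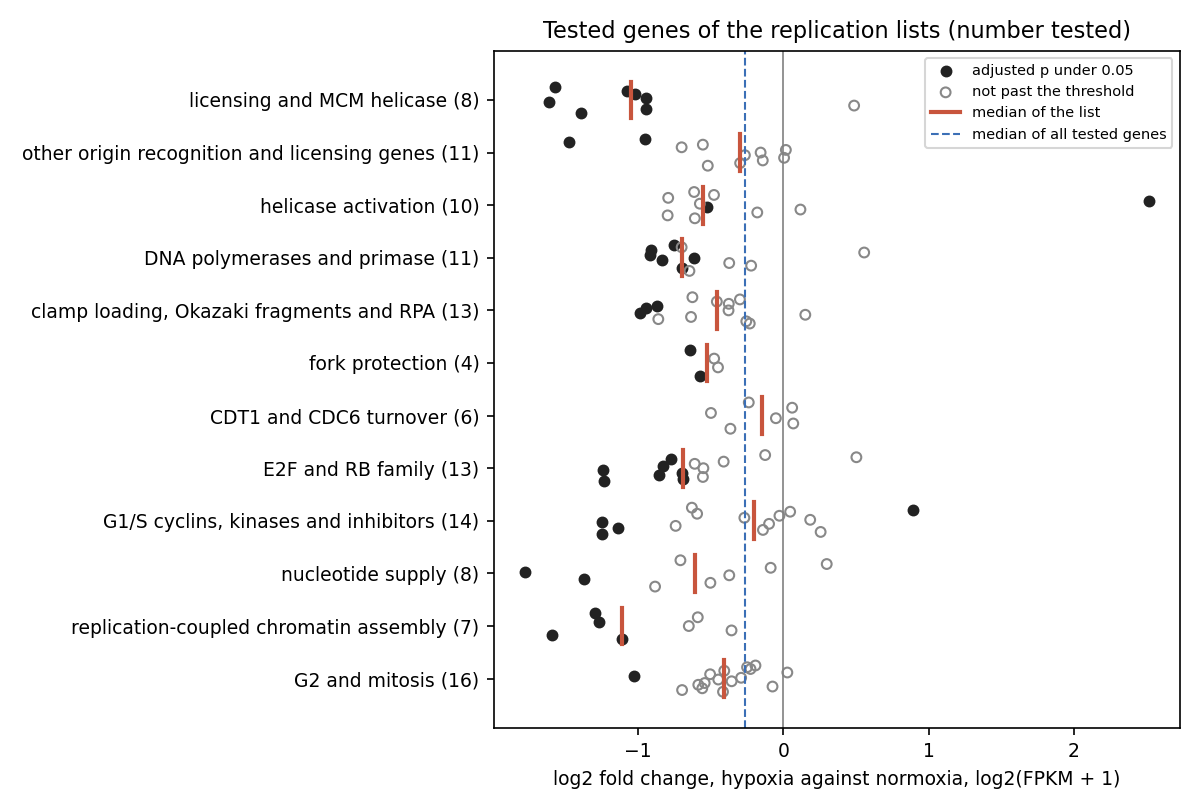
Log2 fold change on log2(FPKM + 1) of each tested gene, by list, with genes past an adjusted p of 0.05 filled, the list median in red and the median of all tested genes dashed. The licensing and helicase genes have a median of -1.05, and TICRR at 2.51 lies apart to the right.

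The m6A lists are the authors' peak calls, 1 list per condition, with a log2 enrichment of antibody over input, a p-value and an adjusted p-value per peak. They hold no values per library. The enrichments below are the authors' own and are used to describe peaks within a list. In normoxia 8 peaks fell on 6 of the 9 genes (CDT1, GINS2, MCM2, MCM3, MCM4 and MCM6), and in hypoxia 7 peaks on 5 (GINS2, MCM2, MCM3, MCM4 and MCM7). PCNA and CDC6 had no listed peak in either condition. Over all tested genes 85.8% had a peak in normoxia and 79.8% in hypoxia. The members' peaks were weakly enriched: 7 of 8 in normoxia and 7 of 7 in hypoxia lay below the median of their list, which was 2.08 and 2.27. Against peaks of genes with 5 to 50 FPKM, whose medians were 1.78 and 1.95, 6 of 8 and 7 of 7 lay below. These counts include CDT1 in normoxia (3.09 FPKM) and GINS2 in hypoxia (3.86 FPKM), whose levels lie below that range.

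MCM3 had the strongest peak of the set, in the 3′ UTR. In normoxia it spanned chromosome 7, 46085380 to 46085828, with a log2 enrichment of 2.16 (authors' adjusted p = 7.94e-35), and its near edge lay 718 bases from the annotated 3′ end of the gene. In hypoxia the peak spanned 46085380 to 46085768 with 1.56 (adjusted p = 4.57e-09). An exonic peak upstream had 1.30 in normoxia (46086008 to 46089919) and 1.01 in hypoxia (46086038 to 46089890). Hypoxia added a short 3′ UTR peak of 61 bases (46085230 to 46085290, 1.04), with an adjusted p of 0.0891. A span may include introns.

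MCM2 had 1 exonic peak in each condition, at nearly the same place (chromosome 13, 72644131 to 72649757 in normoxia and 72644161 to 72649757 in hypoxia), with log2 enrichments of 1.67 and 1.19. It lies outside the stretch shared with the unnamed gene on the other strand. GINS2 had a 3′ UTR peak in both, with 0.91 in normoxia (chromosome 6, 3242822 to 3243181) and 1.37 in hypoxia (3242852 to 3243031). MCM4 had an exonic peak in both (chromosome 4, 79679099 to 79679639, 0.70, and 79679159 to 79679519, 0.75) and a second exonic peak in normoxia alone (79675907 to 79676407, 0.45). The MCM4 peaks were the weakest of the set in each list.

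The remaining peaks were listed in 1 condition. CDT1 had a 3′ UTR peak in normoxia that began at the annotated 3′ end (chromosome 6, 893381 to 893620, log2 enrichment 1.82, authors' adjusted p = 0.0126), and MCM6 an exonic one in normoxia (chromosome 15, 15952979 to 15977893, 1.58, adjusted p = 1.58e-46). RNA of both genes was lower in hypoxia, at 1.02 and 2.07 FPKM, and its part in the missing peaks was not tested. Of tested genes with a normoxia peak, 9.89% had none in hypoxia. MCM7 had a 5′ UTR peak of 91 bases in hypoxia (chromosome 3, 8013618 to 8013708, 1.41), with an adjusted p of 0.0631. Of tested genes with a hypoxia peak, 3.17% had none in normoxia. Of the members' peaks, 5 in each list overlapped a peak of the other list by at least 1 base, against 72.4% of all normoxia and 83.8% of all hypoxia peaks. The authors' deposited table of differential peaks, which lists 1206 peaks with an unadjusted p up to 0.049, holds 0 peaks of these genes. Of tested genes 9.62% have a peak there. Whether the enrichments of a member differ between conditions was therefore not shown.

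**Figure D5:**
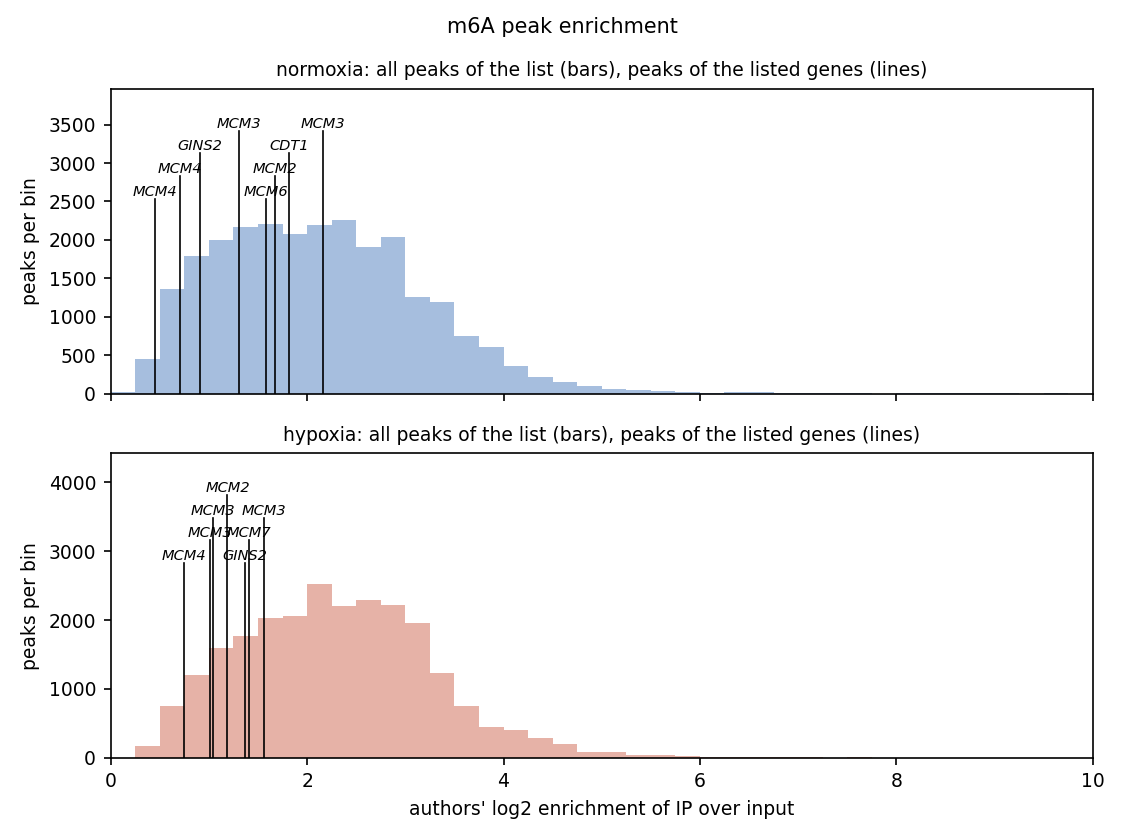
Number of m6A peaks per bin of 0.25 of the authors' log2 enrichment (x axis) in the normoxia (top) and hypoxia (bottom) list, with each peak of the licensing and helicase genes as a named vertical line (line heights only separate the names). The lines lie at 0.45 to 2.16 in normoxia and at 0.75 to 1.56 in hypoxia.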

How the data were processed

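Deposited FPKM for the 6 input libraries, named so per the file headers, are the authors' values. The submitters' processing notes name HISAT2 2.0.4, StringTie 2.1.2, HOMER 4.10, edgeR 4.1, fastp 0.19.4 and FastQC, and the build Sscrofa11.1, without saying what each produced. The authors' deposited gene comparison holds log2 fold changes with p-values and q-values, and their peak tables a log2 enrichment or log2 difference with p-values. Deposited peak starts count from 0 and are given here from 1, since 3369 normoxia peaks begin 1 base before their gene and 0 at its start.

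FPKM were tested with limma 3.58.1 in R 4.3.3 on log2(FPKM + 1), with its trend and robust options, for genes with 1 FPKM or more in 3 libraries. Errors are SD over libraries or SE of the fit. No steps of whole reads were found among low FPKM: at most 7 of 1150 low genes had 1 ratio in common between normoxia libraries 1 and 2. Permutation tests used scipy 1.17.1. Symbols were the deposited ones for 13660 genes and came from a gene name table for 120.

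Named genes are the members, at most 4 called genes per list by size of change, PRKDC and the replication gene with the largest rise. Members and lists were chosen with earlier results of these data known. Alternatives were the pseudocount, the filter, median-ratio scaling, the limma options, the replicate block, each library left out, the reference genes, the peak threshold and the overlap.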

Additional observations from a re-analysis of the deposited data

How the results depend on the processing

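Depth is unknown, and 3 libraries a condition limit what could be called. Median-ratio scaling left 753 of all tested genes lower (from 2148), 14 list genes lower (from 31) and 1 member higher (from 0). With no filter 1 list gene was higher. With single libraries left out, all tested genes called lower ranged from 798 to 3186 and higher from 334 to 1143, members lower from 4 (without normoxia library 2) to 7 and higher from 0 to 1 (without hypoxia library 3), and list genes lower from 8 to 41 and higher from 1 to 6. The labels do not say whether same-numbered libraries belong together, and 3 libraries a condition could not settle it. Deviations of same-numbered libraries correlated at 0.59, 0.04 and 0.70. Normoxia 1 correlated best with hypoxia 2 (0.64), and normoxia 2 correlated weakly with each hypoxia library. The main fit used no pairing. The replicate block gave 7 members lower and 1 higher (MCM4, limma adjusted p = 0.0475) and 49 list genes lower. Of all tested genes it gave 2768 lower and 695 higher. The relative level of MCM4 rose by 1.97 with a pseudocount of 0.1. Small differences changed sign. PRKDC ranged from -0.084 to 0.090 with single libraries left out (-0.024 without normoxia library 3). With the MCM subunits alone as reference, the relative difference was -0.083 for MCM3 and -0.077 for MCM7. The relative difference with single libraries left out ranged from -0.11 to 0.22 for MCM7, from -0.27 to 0.13 for CDT1 and from -0.27 to 0.13 for GINS2. With MCM4 out of the reference, an alternative chosen after seeing the data, it was 0.24 for CDT1 and 0.17 for GINS2. For CDT1 it was 0.03, 0.07, 0.11 and 0.13 without normoxia 2, normoxia 3, hypoxia 1 and hypoxia 2. The cause was not tested.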

Other observations

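Many genes followed the members across the 6 input libraries. The likeness was the Pearson correlation, on log2(FPKM + 1), with the mean standardised level of the 8 tested members, and it is a description, since the 6 points share 2 conditions and their libraries. Of 5726 other tested genes with a mean of at least 5 FPKM, 498 reached 0.95. The 5 highest were ERG28, ASAH1, CDK2AP1, NOP16 and SPAG7, at 0.996 to 0.998. Each member is part of that mean, which raises its own correlation, so members and other genes cannot be compared by it. MCM3 had 0.998, MCM2 0.980, PCNA 0.976, MCM6 0.965, MCM7 0.946, GINS2 0.917 and CDT1 0.889, while MCM4 had -0.333.

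Of the 126 genes in the replication and cell cycle lists, 6 have a peak in the authors' deposited table of differential m6A peaks, where 9.62% of all tested genes have one. The 126 include 13 genes that were not tested. By the authors' deposited table, the peak of CCND3, the cyclin D3 gene, passes 0.05 after adjustment; it lies in the 3′ UTR (chromosome 7, 37086097 to 37086546) and has less m6A in hypoxia, with a log2 difference of -0.595. The peaks of CLSPN, CUL4A, E2F1, FZR1 and TIMELESS do not pass it. Among these, E2F1 has a 3′ UTR peak with less (chromosome 17, 37178748 to 37178957, -1.15) and TIMELESS one with more (chromosome 5, 21763044 to 21763902, 1.19). The genes of this paragraph were chosen after their values were seen.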
